A study of Helianthus annuus with 2 samples.

Results

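Broad H3K4me3 intervals of late developing seeds of sunflower (Helianthus annuus) were selected on 2 measured values, their width and their overlap with an earlier stage. An interval of the peak list labelled 28 days after anthesis (28 DAA) had to be wider than 1000 bp on 1 of the 17 chromosomes. It also had to overlap, by at least 1 bp, none or exactly 1 interval of the list labelled 13 DAA. The rule kept 2721 of the 123464 intervals labelled 28 DAA. They made up 2.22% of the 122415 intervals on the chromosomes and covered 3.27 Mb, or 7.14% of the chromosomal length under 28 DAA intervals. Wider than 1000 bp were 4270 chromosomal intervals (3.49%), of which 1549 were left out because they overlapped 2 or more intervals labelled 13 DAA. Width and number of overlaps are therefore given as descriptions, without a test. The number depends on the limit, and 1500 bp would have kept 195 intervals and 800 bp 6489.

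H3K4me3 is the trimethylation of lysine 4 on histone H3. In plants, as in other eukaryotes, it marks nucleosomes near the start of genes that are being transcribed. Methyltransferases of the Trithorax type write the mark, and demethylases with a JmjC domain remove it. A peak caller reports each stretch of enriched chromatin as an interval with 1 summit, and a broad interval is a stretch over which the signal stayed above the background for longer than usual.

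The study sequenced chromatin of developing seeds, immunoprecipitated with an anti-H3K4me3 antibody, from CAS-9, a fixed mutant line with high oleic acid. Seeds were collected at an early (13 DAA) and a late (28 DAA) stage of fatty acid synthesis from plants of the same growth chamber regime. Each stage had 1 library and 1 peak list, so the spread between replicates is unknown, the stages were not tested against each other, and values set side by side describe these 2 libraries. Positions refer to the sunflower XRQ genome and are counted from 1. Gene models of that version were not used here, so no gene is named for an interval and the tissue could not be checked against marker genes. A stronger mark in each cell and a larger share of cells with the mark cannot be told apart in seed chromatin. The study's text gives its peak totals with the stages the other way round from the labels of the lists, so a stage named here always means the label of a list.

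The list labelled 13 DAA was the longer, with 162824 chromosomal intervals, but only 229 of them were wider than 1000 bp. The number of fragments piled up at a summit was solved from its fold enrichment and p-value, and its median over all chromosomal intervals was 43 at 28 DAA and 19 at 13 DAA. The genome-wide background stood at 143 fragments per 10 kb at 28 DAA and at 157 at 13 DAA.

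The broad intervals crowded just above the limit of width. Their median was 1151 bp (quartiles 1063 and 1281 bp), against 282 bp for all chromosomal intervals of the list. A width of 1500 bp was exceeded by 195 of them (7.17%), and 2000 bp by 20 (0.735%). Those without a 13 DAA interval had a median of 1140 bp and those with 1 had 1156 bp, so both classes were almost equally wide. The intervals that overlapped 2 or more 13 DAA intervals were wider, with a median of 1271 bp, and 20.9% of them exceeded 1500 bp.

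The widest broad interval, chr12:156737951-156740970, measured 3020 bp. The second, chr11:13243663-13246437, measured 2775 bp, and no other exceeded 2500 bp. Next came chr5:19789269-19791528 with 2260 bp and chr8:12553064-12555285 with 2222 bp. The fifth, chr13:108917533-108919722, measured 2190 bp and was the widest without a 13 DAA interval. It was followed in that class by chr13:109003368-109005554 with 2187 bp, only 83645 bp further along, and by chr15:169407815-169409997 with 2183 bp. The upper end of the range thus held both classes, and among the 20 intervals over 2000 bp, 7 had no 13 DAA interval and 13 had 1.

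The limit cut through a continuous range. Just inside it were chr1:45963711-45964711 and chr2:12589076-12590076, each of 1001 bp, with fold enrichments of 10.5 and 5.69. Just outside it were chr1:137397436-137398435 and chr3:160232284-160233283, each of 1000 bp, with 9.67 and 7.47. The fold enrichments on both sides overlapped.

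**Figure D1:**
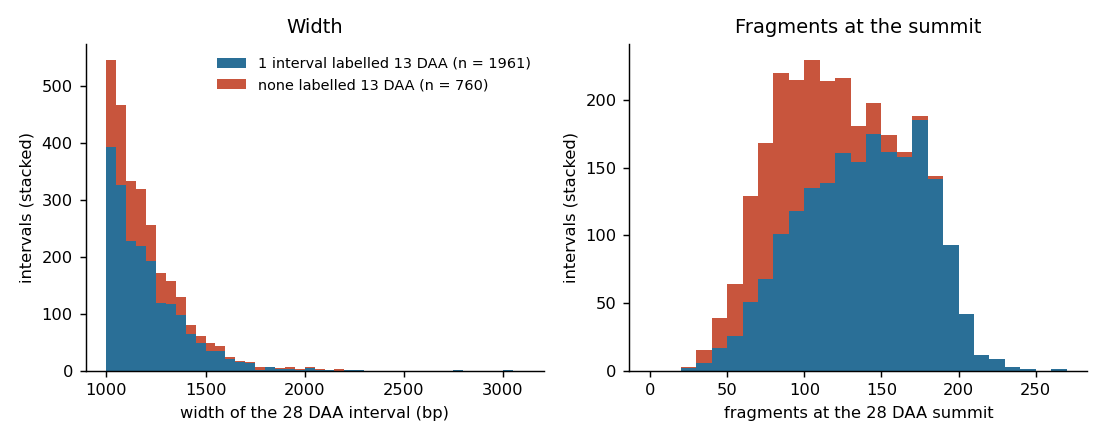
Width in bp (left, bins of 50 bp) and number of fragments at the summit (right) of the 2721 broad 28 DAA intervals, stacked by whether they overlapped 1 interval labelled 13 DAA (blue, 1961) or none (red, 760). Widths pile up just above 1000 bp in both classes, while the fragments of the red class sit lower, with a median of 91 against 140.

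The signal at the summit comes from the library that chose the intervals, so it is a description as well. The fold enrichment is the ratio of the fragments at the summit to those of the local background, each raised by a pseudocount of 1. Its median was 7.69 in the broad intervals (quartiles 6.51 and 8.86), 8.31 in intervals over 500 and up to 1000 bp with none or 1 overlap, and 5.91 in all chromosomal intervals. The fragments followed another order, with a median of 122 in the broad intervals, 90 in those over 500 and up to 1000 bp and 43 overall. The broad intervals thus had the most fragments of these 3 sets but not the highest fold enrichment. More than 50 fragments stood at 97.7% of the broad summits, against 42.7% of all.

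The local background, the denominator of the fold enrichment, was higher at the broad intervals than in both of these sets. Counted over 10 kb, its median was 934 fragments there, 617 at intervals over 500 and up to 1000 bp and 396 overall. The intervals over 1000 bp with 2 or more 13 DAA intervals exceeded the broad ones in both measures, with 1149 fragments of background and 151 at the summit, and their median fold enrichment was 7.61. No broad interval stood at the genome-wide background, which applied to 12.3% of all chromosomal intervals. Within the broad intervals, those up to 1100 bp had a median fold enrichment of 7.99 and a background of 840, and those over 1500 bp had 6.52 and 1126. The widest ones therefore had lower fold enrichments and more background. The 10 kb around a summit include the broad interval itself, so its own fragments may be part of the background. Whether an input control was used is not given, and this part was not tested. Spearman's rho over the 2721 intervals was -0.237 between width and fold enrichment and 0.0977 between width and fragments. Over all 122415 chromosomal intervals of the list the same coefficients were 0.489 and 0.669, so the sign for the fold enrichment was the opposite. The points share 1 library and its depth, and the broad ones start at 1000 bp, so these coefficients carry no test.

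The highest fold enrichments belonged to intervals near the lower limit of width. The highest of all was 17.4 (95% Poisson interval from the summit fragments 14.8 to 20.2, which covers counting error only), at chr5:122128639-122129648, with 162 fragments over a background of 521 in 10 kb. Next came chr11:167005886-167006927 (16.7), chr3:26793550-26794568 (16.6), chr11:166036500-166037559 (15.8) and chr6:102080320-102081341 (15.7). These 5 measured between 1010 and 1060 bp. Each overlapped a short 13 DAA interval of 194 to 305 bp, whose background was the genome-wide value of that list, and the summits of both stages lay 7 to 58 bp apart.

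The lowest fold enrichment was 2.44 (1.98 to 2.97), at chr12:161948833-161949833, where 96 fragments stood over a background of 2410 in 10 kb. It was followed by chr12:161399079-161400218, with 2.76 and 106 fragments, and chr16:103026601-103027797, with 2.91 and 145 fragments. In all 3 the background exceeded 2000 fragments in 10 kb. The summit with most fragments was at chr17:6143358-6144815, where 261 fragments (230 to 295) were the highest number of any chromosomal 28 DAA interval. Its fold enrichment was only 4.43, over 3608 fragments in 10 kb. At chr3:54263605-54265339 and chr12:3815886-3817444, 240 and 235 fragments gave 5.05 and 6.27, again below the median of the broad intervals.

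The summit was spread over most of the interval rather than held at its centre. Its median place was 49.6% of the width from the left end. Cut into 3 equal parts, the left part held 28.4% of the summits, the middle 44.4% (95% Wilson interval 42.6 to 46.3%) and the right 27.2%, so both sides were used about equally. The middle part held 40.9% in intervals over 500 and up to 1000 bp with none or 1 overlap and 36.2% in those over 1000 bp with 2 or more, both less than in the broad intervals, and 67.7% over all chromosomal intervals, whose median width was 282 bp. Left and right are those of the chromosome, and the direction of transcription was not used here.

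Few summits lay at the very edge, but many lay a short way inside an end. Cut into 10 equal bins, the outermost bins held 1.21% and 1.10% of the summits. The distance to the nearer end had a median of 361 bp, and 600 summits (22.1%) lay less than 200 bp from it. This share was 32.0% in the 760 broad intervals without a 13 DAA interval and 18.2% in the 1961 with 1. In the former the fullest bins were the second with 15.0% and the ninth with 17.6%, in the latter the fifth with 14.7% and the sixth with 14.2%. The middle of 3 parts held 38.4% (35.03 to 41.9%) of the summits without a 13 DAA interval and 46.8% (44.6 to 48.97%) of those with 1. In shares of the width, the wide intervals with 2 or more 13 DAA intervals were closer to the former class. They had 36.2% in the middle part and their fullest bins at the second (14.1%) and the ninth (14.9%). Full bins at these places were thus not particular to intervals without a 13 DAA interval. In bp they were closer to the latter class, with 20.9% of the summits less than 200 bp from an end. The median fragments were 91 without, 140 with 1 and 151 with 2 or more, and their part in this difference was not tested.

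**Figure D2:**
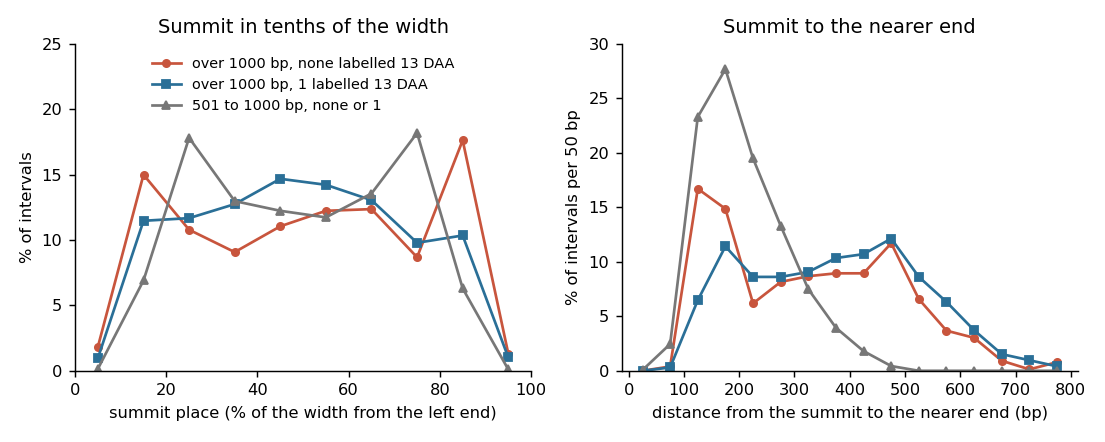
Place of the summit in 10 bins of the width (left, % of intervals) and distance from the summit to the nearer end in steps of 50 bp (right, % of intervals), for broad 28 DAA intervals with none (red circles) or 1 (blue squares) interval labelled 13 DAA and for 28 DAA intervals over 500 and up to 1000 bp (grey triangles). The red curve is highest near both ends, at 15.0% and 17.6%, and the blue curve in the middle, at 14.7%.

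The most lopsided interval was chr15:169407815-169409997, whose summit lay 75 bp from the left end, 3.46% along its width. Towards the other end, the summit of chr5:218862257-218864146, an interval of 1890 bp, lay 94.3% along. Neither overlapped a 13 DAA interval. Of the widest intervals named above, the one on chromosome 8 had its summit 93.4% along and the one on chromosome 11 at 38.3%. Both on chromosome 13 had theirs at 13.3% and 92.5%. The widest of all, on chromosome 12, had its summit at 72.0%, and the third widest, on chromosome 5, at 73.7%. Over 1500 bp, 46.7% of the summits lay in the middle of 3 parts, against 44.4% in all broad intervals.

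Broad intervals occurred on every chromosome, from 94 on chromosome 6 to 200 on chromosome 15. Their density, with the length of a chromosome taken as the end of its last interval in either list, was lowest on chromosome 2 with 0.691 per Mb and highest on chromosome 7 with 1.26, and the median was 0.877. As a share of the 28 DAA intervals of a chromosome they were fewest on chromosome 3, with 1.84% (1.55 to 2.18%), and most frequent on chromosome 7, with 2.96% (2.496 to 3.496%). Chromosome 7 thus stood highest on both scales, and the share over all chromosomes was 2.22%. The lowest and highest values given are the extremes of 17. Their Wilson intervals cover counting error only and make no test between chromosomes. The typical broad interval differed little between chromosomes, with median widths from 1103 bp (chromosome 6) to 1199 bp (chromosome 10) and median fold enrichments from 7.37 (chromosome 3) to 7.92 (chromosome 6).

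Along the chromosomes the broad intervals were spread much like all 28 DAA intervals. When each chromosome was cut into 10 equal bins, 11.2% of the broad intervals lay in the first and 15.1% in the last bin, where 11.9% and 14.1% of all 28 DAA intervals lay. The fourth bin held 7.98% of the broad and 8.17% of all intervals. Both sets were denser towards the ends of the chromosomes than in the middle.

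**Figure D3:**
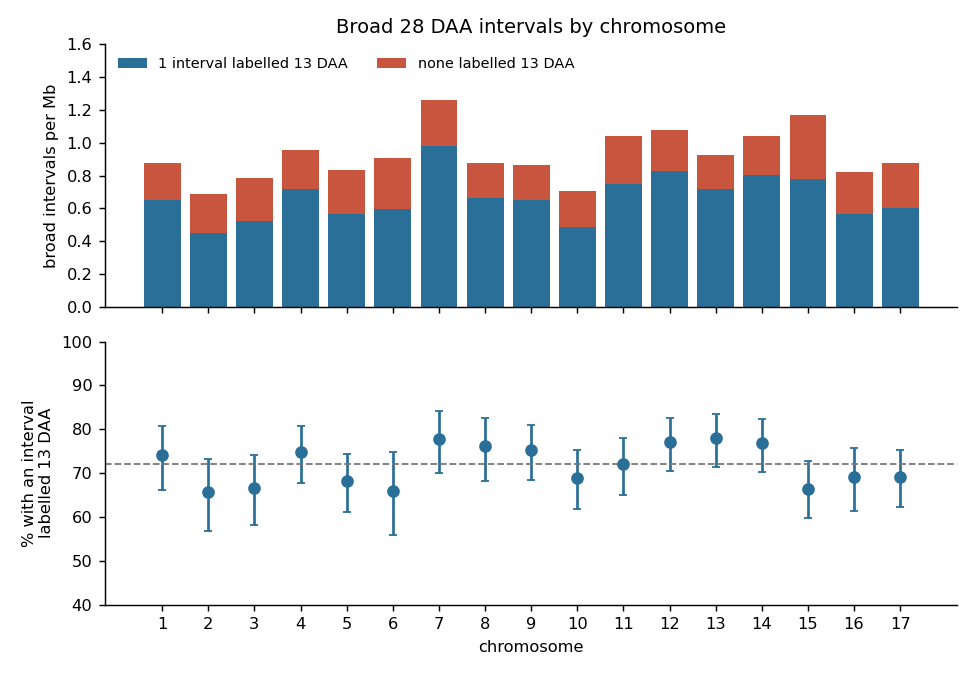
Broad 28 DAA intervals per Mb on each chromosome (top), stacked by 1 (blue) or no (red) interval labelled 13 DAA, and the percentage that had an interval labelled 13 DAA (bottom, axis from 40 to 100%) with 95% Wilson intervals. Chromosome 7 has the highest density with 1.26 per Mb, and all 17 Wilson intervals include the dashed line at 72.1%, the value over all chromosomes.

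Most broad intervals stood far apart. The distance between neighbours had a median of 655 kb (quartiles 225 kb and 1.51 Mb) and reached 14.01 Mb on chromosome 5. With limits of 1500 and 800 bp the median would have been 8907 and 265 kb. No other broad interval lay within 10 kb of 2558 (94.0%) of them. The most remote were chr9:76389808-76391124, at 7.46 Mb from the next, and chr14:8946704-8948122, at 5.96 Mb. Among 3007 windows of 1 Mb, 1355 (45.1%) held none and 962 (32.0%) held 1. The fullest windows held 10 on chromosome 3 from 163 to 164 Mb, 9 on chromosome 9 from 199 to 200 Mb and 9 on chromosome 12 from 161 to 162 Mb.

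Intervals of any width were much closer, and their distances avoided a certain range. The nearest 28 DAA interval was a median of 4.90 kb from a broad interval, against 0.777 kb for the other chromosomal intervals. Of the broad intervals, 37.3% had it within 1 kb, 7.28% from 1 to 4 kb away and 19.96% from 4 to 7 kb away. For the other intervals the last 2 shares were 14.5% and 9.73%, and for those among them with at least 122 fragments, 9.44% and 9.57%. Between broad intervals themselves the range was nearly empty, since 2 had the nearest broad neighbour from 1 to 4 kb away and 118 from 4 to 7 kb away. The local background of a summit was counted over 10 kb, which reaches 5 kb to each side, and its part in this pattern was not tested.

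Groups with distances of up to 10 kb numbered 78 and held 163 broad intervals, in 72 pairs, 5 groups of 3 and 1 group of 4. A 13 DAA interval was present in 71.2% of the grouped and 72.1% of the lone intervals. The closest pair, chr13:120295622-120296897 and chr13:120297019-120298218, was separated by 121 bp. It was followed by chr6:69387665-69388848 with chr6:69389080-69390155 (231 bp) and chr12:161757367-161758445 with chr12:161758707-161759894 (261 bp). In these pairs every interval had its own 13 DAA interval.

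The group of 4 lay on chromosome 10. Its intervals were chr10:212770690-212772199, chr10:212778394-212779891, chr10:212786058-212787569 and chr10:212792801-212793992. Their starts were 7704, 7664 and 6743 bp apart and their summits 7442, 7784 and 6327 bp. The first 3 were almost equally wide, at 1510, 1498 and 1512 bp, and the last measured 1192 bp. Their fold enrichments were 8.54, 8.33, 7.80 and 8.04, from 96, 92, 87 and 79 fragments, so the strength was nearly equal too. Only the second overlapped a 13 DAA interval, which measured 180 bp and had 14 fragments. Whether the sequence under these intervals is repeated was not analysed here.

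**Figure D4:**
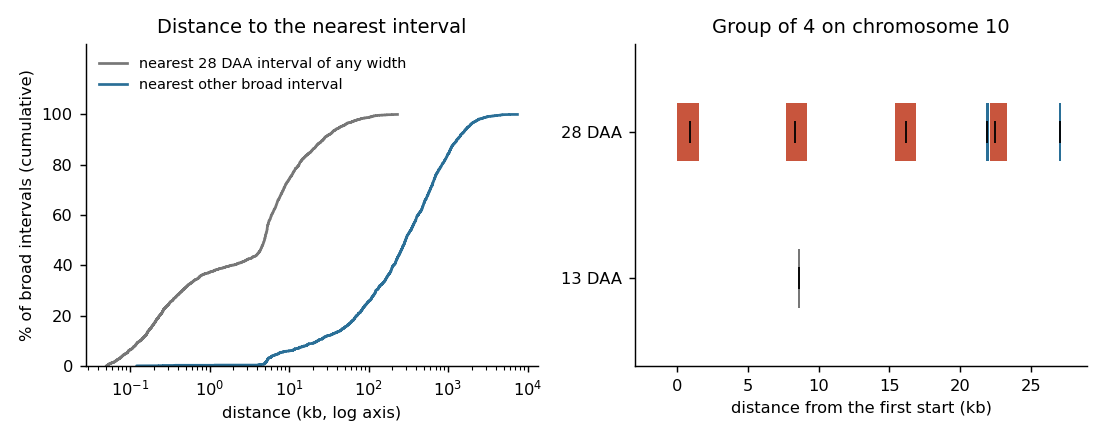
Left, cumulative percentage of broad 28 DAA intervals by distance in kb (log axis) to the nearest 28 DAA interval of any width (grey) and to the nearest other broad interval (blue). Right, the group of 4 on chromosome 10 in kb from its first start, with 28 DAA intervals over 1000 bp in red, narrower ones in blue, the 13 DAA interval in grey and summits as black ticks. The grey curve is flat from 1 to 4 kb, where 7.28% of the intervals fall.

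A 13 DAA interval was present in 1961 of the 2721 broad intervals, or 72.1% (70.4 to 73.7%), where 31.1% of all chromosomal 28 DAA intervals overlapped exactly 1 and 33.6% at least 1. The rule itself used this number and removed intervals with more, and over all 4270 intervals wider than 1000 bp the share with at least 1 was 82.2%. It depended on the strength asked for, and with q-values of at most 1e-20 in both lists it was 24.7% of 4152 intervals. Among intervals over 500 and up to 1000 bp with none or 1 overlap, 54.3% had 1. Within the broad intervals the share was 71.1% at widths up to 1100 bp and 76.9% above 1500 bp. By chromosome it ran from 65.6% (56.9 to 73.4%) on chromosome 2 to 78.0% (71.5 to 83.4%) on chromosome 13, and these Wilson intervals overlapped.

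The rule had kept only widths over 1000 bp and at most 1 overlap, so fragments and width cannot be ranked here. Among the broad intervals, the share with a 13 DAA interval ran over a wider range by number of fragments than by class of width. It was 43.8% among the broad intervals with 26 to 92 fragments, 60.2% with 93 to 122, 86.4% with 123 to 158 and 98.7% with 159 to 261. In the other 28 DAA intervals of the same ranges of fragments, any number of overlaps counted, it was 23.5%, 49.4%, 81.9% and 98.1%. In the highest range, broad and other intervals were thus close to each other, and in the lowest they stood furthest apart. Fragments were not matched inside a range. Broad intervals of the lowest range had a median of 76. All other chromosomal intervals together had 42, but this covers every range and is not their median inside the lowest one. The others included the 1549 intervals over 1000 bp that the rule had left out for 2 or more overlaps, all of which count as having a 13 DAA interval. Width and fragments cannot both be held fixed in this comparison, and the part of each was not tested.

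The 760 broad intervals without a 13 DAA interval had fewer fragments (median 91, quartiles 75 and 111) than the 1961 with 1 (median 140, quartiles 107 and 169). Their fold enrichments were closer, with medians of 7.43 and 7.79, and their backgrounds stood at 711.5 and 1034 fragments in 10 kb. The nearest 13 DAA interval was a median of 5.51 kb away, and 92 of them (12.1%) had it within 1 kb. The other 28 DAA intervals without an overlap had it at a median of 4.17 kb, and 22.5% of these had it within 1 kb. No test was made of these distances.

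Where a 13 DAA interval was present, it was mostly a short piece inside the broad one. Its median width was 385 bp (quartiles 229 and 689 bp), it lay wholly inside in 1886 of 1961 pairs (96.2%), and it covered a median of 33.6% of the broad interval. The 28 DAA interval was the wider in 1943 pairs (99.1%), where all pairs of exactly 1 overlap gave 79.4%, and width had been used for the choice. The median ratio of the widths was 2.98, against 1.56 in all pairs, and 525 broad intervals (26.8%) were at least 5 times wider. A 13 DAA interval that was itself wider than 1000 bp was found in 124 pairs (6.32%).

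The 13 DAA interval covered the middle of the broad interval most often, but no place in more than 55.1% of the pairs. The summits of both stages were a median of 67 bp apart (quartiles 23 and 281 bp), against 40 bp in all pairs. They lay within 100 bp in 1138 pairs (58.0%) and over 500 bp apart in 266 (13.6%). The 28 DAA summit fell inside the 13 DAA interval in 1538 pairs (78.4%), against 87.1% in all pairs, and both summits lay on the same side of the middle in 1445 (73.7%). The summits of most pairs therefore lay close together although the widths differed.

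The widest intervals showed both outcomes. In chr8:12553064-12555285 the 13 DAA interval measured 246 bp and its summit lay 4 bp from that at 28 DAA, with a fold enrichment of 12.6 from 52 fragments against 6.22 from 107. In chr5:19789269-19791528 the 13 DAA interval measured 149 bp with 17 fragments, and its summit lay 1189 bp away from that at 28 DAA.

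More fragments stood at the 28 DAA summit in 1938 of the 1961 pairs (98.8%), where all pairs gave 80.6%. The medians were 140 fragments at 28 DAA and 29 at 13 DAA, and the median ratio was 4.40, against 2.67 in all pairs. The fold enrichment was higher at 28 DAA in 1452 pairs (74.0%), where all pairs gave 59.6%, with medians of 7.79 and 6.39. The background in 10 kb also differed, with medians of 1034 and 271 fragments. Width in the 28 DAA list had been used for the choice. Over all chromosomal intervals of that list, width and fragments rose together (Spearman's rho 0.669). The differences from all pairs are therefore descriptions, and the part of the choice in them was not tested. The genome-wide backgrounds given above and the fragment lengths differ between the libraries, and their part in the ratios was not tested.

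**Figure D5:**
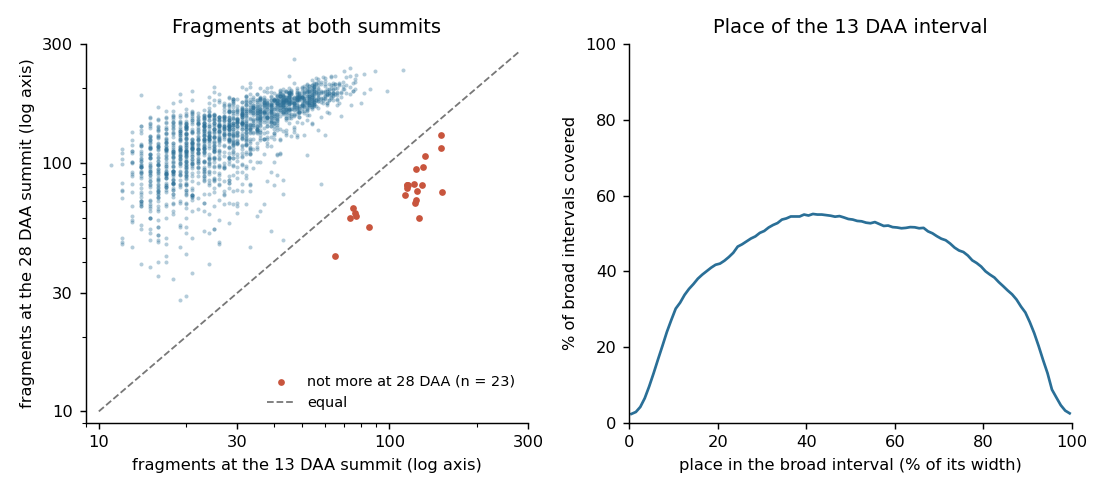
Left, fragments at the 28 DAA summit against fragments at the 13 DAA summit (both log axes) for the 1961 broad intervals with 1 interval labelled 13 DAA, with the line of equal numbers dashed. The 23 pairs without more fragments at 28 DAA are red and lie below that line. The right panel gives the percentage of broad intervals covered by their 13 DAA interval at each place along the width, at most 55.1%.

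The other 23 pairs, looked at after their values were seen, had fewer fragments at 28 DAA than at 13 DAA. Their medians were 77 fragments (range 42 to 129) at 28 DAA and 121 (65 to 152) at 13 DAA. Their 13 DAA intervals were wide, with a median of 1519 bp, and covered between 90.03% and 100% of the broad interval, against a median of 33.2% in the remaining 1938. In 16 of the 23 the 13 DAA interval was at least as wide as the broad one. The background at 13 DAA had a median of 2165 fragments in 10 kb, against 269.5 in the remaining pairs. In the 23 pairs the median fold enrichment was 4.04 at 28 DAA and 3.81 at 13 DAA. These places were thus rich in 13 DAA fragments at the summit and in the 10 kb around it, which include the 13 DAA interval itself.

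They lay on 9 chromosomes, but 13 of them were on chromosome 12 within 5.22 Mb, from 156726314 to 161949833. That stretch held 20 broad intervals, of which 3 had no 13 DAA interval and 4 had more fragments at 28 DAA, with medians of 153 and 41. The widest broad interval of all, chr12:156737951-156740970, was among the 13, with 79 fragments at 28 DAA and 115 in a 13 DAA interval of 3154 bp whose summit lay 15 bp away. In the window from 161 to 162 Mb all 9 broad intervals belonged to them, with 60 to 129 fragments at 28 DAA and 115 to 151 at 13 DAA. Their fold enrichment had a median of 3.52, under the median of 7.69 of all broad intervals. The second widest, chr11:13243663-13246437, was also among the 23, with 60 fragments at 28 DAA and 73 at 13 DAA.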

How the data were processed

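Chromatin of developing sunflower seeds was sequenced after immunoprecipitation of H3K4me3, with 1 library for each stage, grouped by the stage in the labels. Per the study's methods, the authors cleaned reads with FASTX-Toolkit 0.0.13, mapped these with BWA-MEM 0.7.16a to the XRQ reference, removed duplicates with Picard 1.141 and called peaks with MACS2 2.1.4. Pooling of replicates and an input control are not given in the sources used here. Per interval, the deposited lists give positions, a fold enrichment (a ratio at the summit), −log10 p and −log10 q values, and a score, which the authors' caller sets to 10 times the −log10 q rounded down, except in 4 intervals of the list labelled 28 DAA and 1 of that labelled 13 DAA, where the score was 1 lower. The largest q-values were 0.000881 (28 DAA) and 0.000999 (13 DAA).

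The whole number of fragments and the background at each summit were solved from the fold enrichment and p-value with the Poisson formula of MACS2, to within 0.001 in −log10 p for 100% of the intervals. Above the genome-wide value, 100% of the backgrounds, scaled to 10 kb with fragment lengths of 161 bp (28 DAA) and 134 bp (13 DAA), were whole within 0.05. The fragment length was taken as the width of the narrowest interval. Mapped read totals are not in the lists, so depth is known only through these backgrounds. The computation was tested on simulated data. Its fragments were simulated with the same formula and with backgrounds under those of most broad intervals, so the formula itself was not tested.

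Values were computed in Python 3.11.15 (pandas 2.3.3, numpy 2.4.6, scipy 1.17.1) and drawn with matplotlib 3.10.9. Wilson and Poisson intervals are at 95%. Intervals named with positions were the 5 widest, the 5 with the highest and 3 with the lowest fold enrichment, the 3 widest without a 13 DAA interval, the 3 with most fragments, the 2 with the summit nearest to an end, the 3 closest pairs, the 2 most remote, the largest group within 10 kb, and 2 on each side of the width limit. The intervals and comparison sets were chosen with earlier results of these data known. Alternatives changed the width limit, the q-value limit, the number of intervals kept, the overlap and the sequences included. No sequence is shown, and annotation of another genome version was not used.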

Additional observations from a re-analysis of the deposited data

Results flagged for a closer look

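Sequences outside the 17 chromosomes took no part in the comparisons above. They held 33 further 28 DAA intervals wider than 1000 bp with none or 1 interval labelled 13 DAA. All 33 lay on unplaced sequences, with 0 on the plastid and 0 on the mitochondrial genome. A 13 DAA interval was present in 31 of them. Their widths ran from 1012 to 2958 bp with a median of 1211 bp, and their median fold enrichment was 5.54. With any number of overlaps, 46 of the 1049 intervals outside the chromosomes were wider than 1000 bp.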

How the results depend on the processing

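Under the alternatives, 38 values stayed within the range that counted as unchanged and 31 moved. For the number of intervals, that range reached a factor of 1.5. Adding unplaced sequences, asking for an overlap of 50% or asking for the 13 DAA summit inside the interval moved none. A limit of 1500 bp gave 195 intervals with a median width of 1614 bp, a median summit at 52.9%, 46.7% of summits in the middle of 3 parts, a median distance of 8907 kb, a fold enrichment of 6.52 and 76.9% with a 13 DAA interval. A limit of 800 bp gave 6489 intervals, 959 bp, 42.2% of summits in the middle, 265 kb, a fold enrichment of 8.00 and 68.3%. With q-values of at most 1e-10 in both lists there were 3653 intervals, which counted as unchanged. Their width was 1172 bp, the distance 485 kb and the share with a 13 DAA interval 55.3%. At 1e-20 there were 4152 intervals of 1189 bp with 41.5% of summits in the middle, 420 kb apart, and the share was 24.7%, since fewer 13 DAA intervals were left. Any number of overlaps gave 4270 intervals of 1189 bp with 41.4% of summits in the middle, 408 kb and 82.2%. Equal numbers of the strongest intervals in both lists gave 604 kb and 68.2%. Exactly 1 overlap gave 1961 intervals, 46.8% of summits in the middle, 951 kb and a fold enrichment of 7.79. The share with a 13 DAA interval thus depended on the limit of strength, and the cause was not tested where none is named. No paired analysis was possible because each stage had 1 library. The median summit over all chromosomal intervals had 43 fragments in the later list and 19 in the earlier, and the part of depth in the overlap was not tested.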
